A study of Mus musculus with 4 samples.

Results

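The intervals described here lie at a pair of mouse loci known for DNA present in more than 1 copy, the Cwc22 region on chromosome 2 and Rn45s on chromosome 17. Members were all listed intervals that overlapped chromosome 2, 77700000 to 77820000, or chromosome 17, 39975000 to 39990000, and 10 of the 35977 intervals in the 4 lists did so, 6 at Cwc22 and 4 at Rn45s. The loci were chosen by the width and the nearly equal ends of intervals already seen there in these lists. Their number, width and position are therefore given as a description, without a test.

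The 4 groups were chromatin immunoprecipitated from whole mouse uterus with a goat antibody to FOXA2, in adult pseudopregnancy and at postnatal day 12 (PD12), and, at the same stages, with a rabbit antibody to the serine 2 phosphorylated form of RNA polymerase II (POL2). The adult tissue is labelled with days 2.5 and 3.5 of pseudopregnancy on 1 library, and the labels name no strain, genotype or treatment for any group. Each group had 1 library, so nothing below has a replicate check. The lists held 10373 adult and 814 PD12 FOXA2 intervals, and 14818 adult and 9972 PD12 POL2 intervals, called domains here. They carry positions only, with no height or read count, and read depth is unknown. Whole uterus mixes epithelium, stroma and muscle, and its cell types could not be checked against markers in lists of positions.

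Ribosomal RNA genes are transcribed by RNA polymerase I, not by RNA polymerase II, from tandem arrays of many near-identical copies. Genome assemblies hold few of those copies, so reads from many copies can be placed on the same short stretch. Rn45s is the symbol for the ribosomal RNA precursor. Cwc22 encodes a spliceosome protein that helps to load the exon junction complex onto messenger RNA, and the segment that holds it varies in copy number between mouse strains. FOXA2 is a forkhead transcription factor of the uterine glands, and the serine 2 form of RNA polymerase II is found on gene bodies during elongation.

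Of the member genes, Cwc22 was matched in the RefSeq tables of GRCm38.p6 and Rn45s was not. The Cwc22 promoter is shown to give the gene's start and its direction, which is the minus strand, at chr2:77946307-77946606 in GRCm38.p6. These positions were not set beside those of the intervals, which are taken to be on another build, mm9. Lower-case letters are the 250 bases before the start and capitals the 50 bases after it.
Cwc22: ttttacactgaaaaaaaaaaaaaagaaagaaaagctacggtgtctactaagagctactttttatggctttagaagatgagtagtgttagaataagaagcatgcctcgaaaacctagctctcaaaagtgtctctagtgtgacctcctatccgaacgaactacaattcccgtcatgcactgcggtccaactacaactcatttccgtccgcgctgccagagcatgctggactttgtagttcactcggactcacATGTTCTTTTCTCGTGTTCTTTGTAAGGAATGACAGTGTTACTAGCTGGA
The forkhead letters TGTTTAC were searched on both strands. They occurred 0 times in this window and in 3.65% of 32817 promoters of the same length.

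At Rn45s, FOXA2 was listed at both stages and POL2 in the adult alone, and the listed stretches had nearly the same outer ends. The adult FOXA2 list had 1 interval, from 39979544 to 39985889 (6346 bp). The PD12 FOXA2 list had 2 intervals, from 39979794 to 39983693 (3900 bp) and from 39984353 to 39985798 (1446 bp), with 659 bp between them. The adult POL2 list had 1 domain, from 39979800 to 39985799 (6000 bp). No PD12 POL2 domain was listed within the window, and the nearest lay 2754.4 kb before it. All 3 lists that had an interval there thus placed it on the same stretch of about 6 kb.

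**Figure D1:**
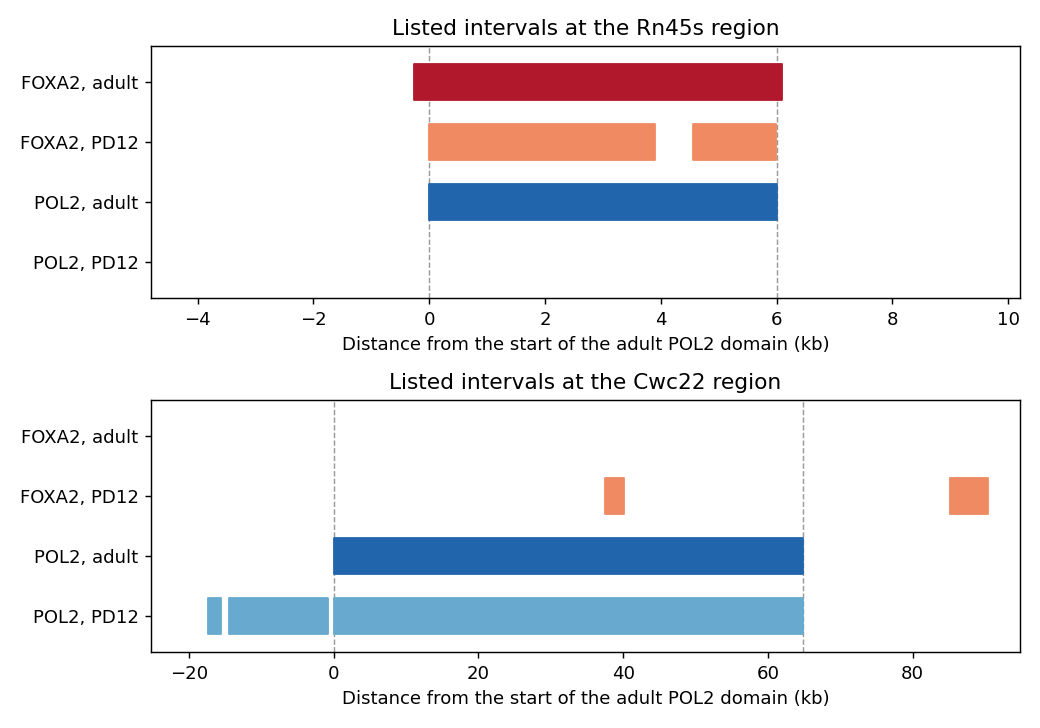
Listed intervals at the Rn45s region (top) and the Cwc22 region (bottom), by antibody and stage; the x axis is the distance in kb from the start of the adult POL2 domain, bars are listed intervals, and dashed lines mark the ends of the adult POL2 domain. At Rn45s the adult and PD12 FOXA2 intervals end near those lines, whereas at Cwc22 the 2 PD12 FOXA2 intervals are far from them.

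The antibodies were compared first within the adult stage. The adult FOXA2 interval at Rn45s began 256 bp before the adult POL2 domain and ended 90 bp after it. POL2 positions lie on a grid of 200 bp, so the end distance is below a single step of that grid and the start distance is little more than 1 step. The intervals shared 6000 bp of a union of 6346 bp, a Jaccard index (shared bases over all bases covered by either) of 0.945.

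Over the whole adult lists such agreement was uncommon, but widths limit it. A FOXA2 interval of the median width, 685 bp, cannot match both ends of a POL2 domain of the median width, 4800 bp. A POL2 domain overlapped 19.4% of the adult FOXA2 intervals (2012 of 10373), and both ends lay within 500 bp of each other in 5.42% of the 2012 pairs (109; exact 95% binomial interval 4.47 to 6.50%, for counting error only). A Jaccard index of 0.8 or more was reached by 1.09% of the pairs (22). The median pair had an index of 0.133, and the larger of its start and end distances was 4342 bp. The Rn45s pair had the second highest index of the 2012, and its larger end distance of 256 bp ranked 47. Among the 47 pairs whose FOXA2 interval was 2000 bp or wider, the Rn45s pair had the highest index and the next was 0.920. Of these 47, 6.38% (3) had both ends within 500 bp, and 6.38% (3) had an index of 0.8 or more.

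**Figure D2:**
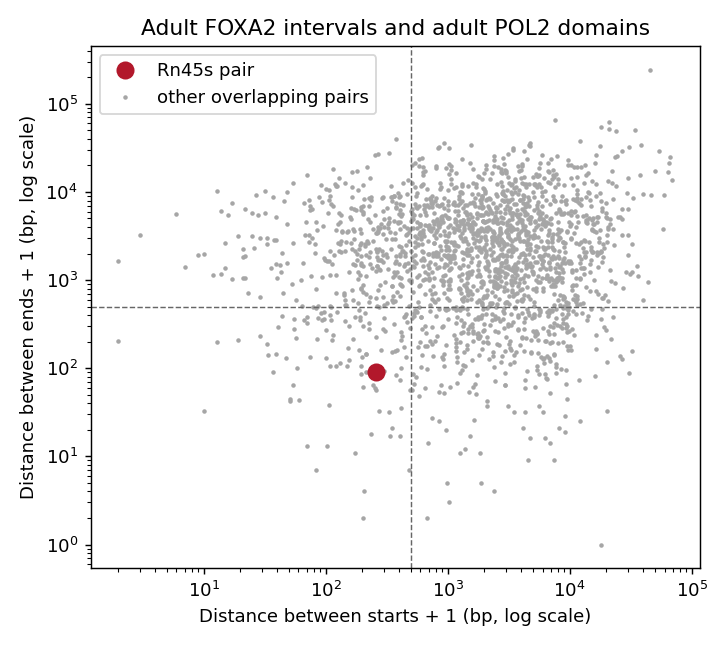
Distance between starts (x axis) and between ends (y axis), in bp plus 1 on log scales, for the 2012 overlapping pairs of an adult FOXA2 interval and an adult POL2 domain; dashed lines mark 500 bp. The Rn45s pair lies in the lower left field, within 500 bp on both axes, with 109 pairs in all.

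The outer ends at Rn45s also agreed between FOXA2 at PD12 and POL2 in the adult. An adult POL2 domain overlapped 29.9% of PD12 FOXA2 intervals (243 of 814), and both ends lay within 500 bp in 4.94% of these pairs (12). Taken singly, neither PD12 FOXA2 interval at Rn45s was among those 12. Their larger end distances were 2106 bp (index 0.648, rank 4 of 243) and 4553 bp (index 0.241, rank 31). The outer start of the PD12 FOXA2 intervals lay 6 bp before that of the adult POL2 domain, and their outer end lay 1 bp before its end. They shared 5340 bp, which was 99.9% of the PD12 FOXA2 bases and 89.0% of the adult POL2 bases, and the gap between the PD12 intervals made up nearly all of the difference. With PD12 FOXA2 intervals joined across gaps of up to 1 kb, a setting chosen after these positions were seen, the stretch at Rn45s had an index of 0.999 with the adult POL2 domain. That was the highest of 242 overlapping pairs, whose median was 0.0626, both ends lay within 500 bp in 5.37% of those pairs (13), and 1.24% (3) had an index of 0.8 or more. As POL2 starts and ends fall on grid positions, an agreement of 1 to 6 bp is closer than the grid itself can resolve.

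Between stages, the FOXA2 stretch at Rn45s was wider in the adult. Of the adult FOXA2 intervals 5.65% overlapped a PD12 interval, and of the PD12 ones 72.1% overlapped an adult interval. The adult FOXA2 interval began 250 bp before the first PD12 interval and ended 91 bp after the second, and it covered all 5346 bp listed at PD12. A PD12 interval wholly inside the adult one was the rule for FOXA2, at 95.7% of 587 overlapping pairs (562), and both ends lay within 500 bp in 85.9% (504). Both PD12 intervals at Rn45s lay inside the adult one in the same way, but each, taken alone, missed the 500 bp limit at the end that faces the gap.

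PD12 POL2 was the list that had no domain at Rn45s. Of the adult FOXA2 intervals, 0.617% (64 of 10373) shared this make-up, overlapping PD12 FOXA2 and adult POL2 but no PD12 POL2. A further 0.935% (97) were overlapped in all of the other 3 lists. Among adult FOXA2 intervals that overlapped both PD12 FOXA2 and adult POL2, 64 thus lacked PD12 POL2 and 97 had it. A missing PD12 POL2 domain was not rare among them. With depth unknown, the missing PD12 domain does not show that signal was absent there.

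Other intervals near the Rn45s stretch are given as counts, with no average over the genome to set beside them. Within 1 Mb of the window, 1 other adult FOXA2 interval was listed, and no PD12 FOXA2, adult POL2 or PD12 POL2 interval. The nearest adult FOXA2 interval lay 769.1 kb before the window, and the nearest PD12 one 3024.1 kb after it. The nearest adult POL2 domain lay 1019.2 kb after it. In the gene table for GRCm38, chromosome 17 has a ribosomal RNA pseudogene, Rn18s-rs5, beside the long non-coding RNA AY036118. Whether either lies at these positions in the build of the files was not determined.

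At Cwc22, FOXA2 was listed at PD12 alone, and POL2 at both stages in a wide domain with the same ends, away from those of FOXA2. No adult FOXA2 interval was listed, and the nearest lay 121.6 kb after the window. The PD12 FOXA2 list had 2 intervals, from 77762666 to 77765302 (2637 bp) and from 77810425 to 77815562 (5138 bp). The adult POL2 list had 1 domain, from 77725200 to 77789999 (64.8 kb). The PD12 POL2 list had a domain with the same start and the same end, and 2 more on its low side, from 77707800 to 77709599 (1800 bp) and from 77710800 to 77724399 (13.6 kb). The position of the wide domain was thus the same at both stages, and no FOXA2 interval was near either of its ends.

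The wide POL2 domain had the same listed start and end at both stages. POL2 positions lie on a grid of 200 bp, so this is a match to the grid step, not to the base. Of the adult POL2 domains 54.4% overlapped a PD12 domain, and of the PD12 ones 79.9% overlapped an adult domain. Identical start and end were found in 0.66% of 9094 overlapping pairs of an adult and a PD12 POL2 domain (60; 0.504 to 0.848%), an identical start in 6.51%, an identical end in 7.08%, and both ends within 500 bp in 7.05%. The median identical pair was 4.2 kb wide, and the Cwc22 pair, at 64.8 kb, was the widest, ahead of 23.4 kb at chromosome 2, 30449200 to 30472599. In 13 pairs both domains were 50 kb or wider. Cwc22 was the 1 identical pair among these. The next differed by 200 bp, a single step of the grid, at its farther end, and the median differed by 15.2 kb. In the gene table for GRCm38, Cwc22 spans 65.2 kb, close to the width of the domain. Whether the domain lies on the gene was not tested. Joined across gaps of up to 1 kb, the PD12 domain began 14400 bp before the adult one, so the identity of starts depends on an 800 bp gap in the PD12 list.

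**Figure D3:**
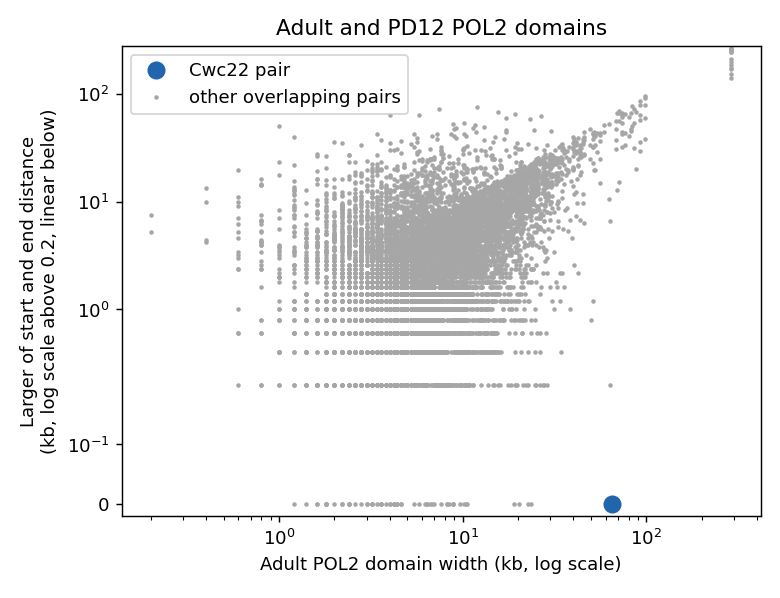
Adult POL2 domain width in kb on a log scale (x axis) against the larger of the start and end distances between the adult and the PD12 domain in kb (y axis; log above 0.2 kb, linear below), for 9094 overlapping pairs. The Cwc22 pair, 64.8 kb wide, lies at 0, and the other pairs at 0 are at most 23.4 kb wide.

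POL2 covered less at Cwc22 in the adult, with 64.8 kb listed there and 80.2 kb at PD12. The whole difference of 15.4 kb lay in the low-side domains, which were separated from the wide domain by 800 bp and from each other by 1200 bp. Cwc22 is on the minus strand in GRCm38, and the gene table places the long non-coding RNA Gm35431 on its low side and the pseudogene Gm13726 on its high side. The gene's orientation in the build of the files was not compared.

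FOXA2 ends at Cwc22 were far from POL2 ends, unlike at Rn45s. The first PD12 FOXA2 interval lay inside the wide PD12 POL2 domain, beginning 37.5 kb after its start and ending 24.7 kb before its end. Its Jaccard index with that domain was 0.0407, close to the median of 0.0451 over the 165 overlapping PD12 pairs and ranked 88 among them. The second and wider interval began 20425 bp after the end of the domain and overlapped no POL2 domain of either stage. Over the PD12 lists, 20.3% of FOXA2 intervals (165 of 814) overlapped a POL2 domain, and both ends lay within 500 bp in 0.606% of these pairs (1). Coinciding ends across antibodies were thus seen at Rn45s and not at Cwc22. Widths alone fixed the outcome for the overlapping pair at Cwc22. An interval of 2637 bp cannot match both ends of a domain of 64.8 kb, whereas the adult Rn45s pair had 6346 and 6000 bp. Within a stage, Rn45s had both antibodies in the adult only and Cwc22 at PD12 only, so there locus and stage cannot be told apart. Over all adult pairs, 5.42% had both ends within 500 bp. For PD12 FOXA2 against adult POL2, listed at both loci, the outer starts and ends lay 6 and 1 bp apart at Rn45s. At Cwc22 they lay 37466 and 25563 bp apart.

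Other intervals near Cwc22 were counted in the same way, again without an average over the genome. Within 1 Mb of the window there were 8 other adult and 0 other PD12 FOXA2 intervals, and 7 other adult and 6 other PD12 POL2 domains. The nearest PD12 FOXA2 interval outside the window lay 1586.4 kb after it. The nearest POL2 domains before it lay 610.6 kb away in the adult and 609.6 kb away at PD12.

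Width is what both loci share in the PD12 FOXA2 list, and it is what brought them to notice. Cwc22 had no interval in the adult FOXA2 list. The adult Rn45s interval was the widest of 10373, at 9.26 times the list's median of 685 bp. The widest adult interval outside the loci had 4249 bp, at chromosome 17, 34255699 to 34259947. At PD12 the 4 widest of 814 intervals were the members, with 5138 bp and 2637 bp at Cwc22 and 3900 bp and 1446 bp at Rn45s, against a median of 318.5 bp. The next had 1145 bp, at chromosome 2, 98506371 to 98507515. Together the members held 0.0832% of the bases covered by adult FOXA2 and 4.51% of those covered by PD12 FOXA2.

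In the POL2 lists the members were not extreme as a set. The wide Cwc22 domain ranked 17 of 14818 in the adult and 9 of 9972 at PD12. The adult Rn45s domain, of 6000 bp, ranked 5627, near the adult median of 4800 bp. The low-side PD12 domains at Cwc22 ranked 972 and 9101. POL2 members held 0.0744% of covered bases in the adult and 0.114% at PD12.

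**Figure D4:**
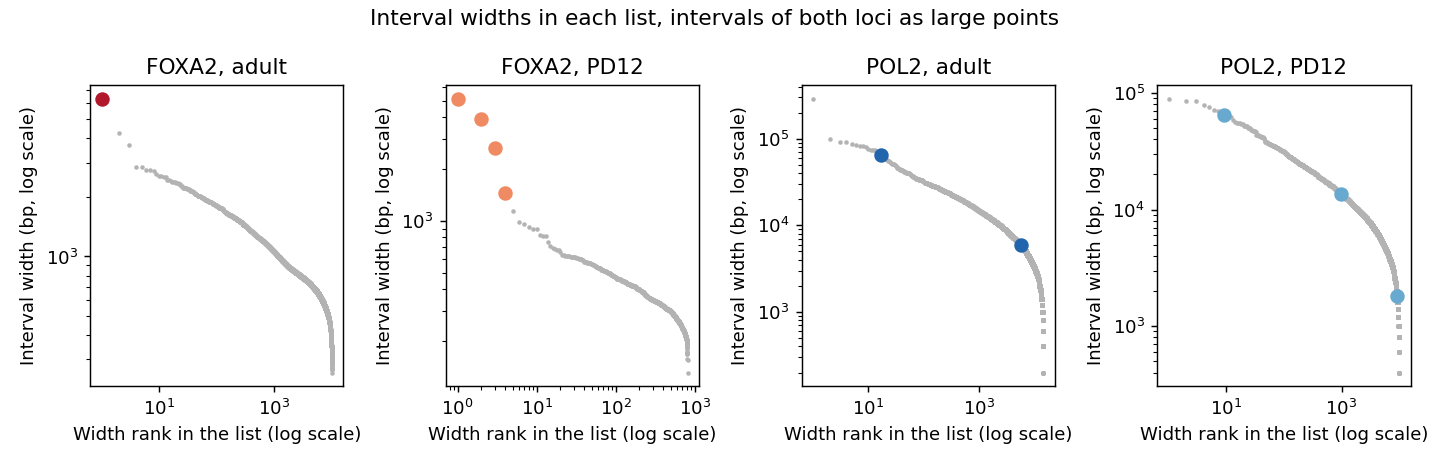
Interval width in bp against width rank, both on log scales, in each of the 4 lists; grey points are all intervals and large points the intervals of both loci. In FOXA2 the members take rank 1 in the adult and ranks 1 to 4 at PD12, whereas in POL2 they are spread over the ranks.

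The pairs most like Rn45s were sought among the 736 other overlapping adult pairs with at least 1000 bp on both sides. The adult pair with a higher index than Rn45s did not reach this width and was left out. No such pair existed at PD12 outside the loci, where the widest PD12 FOXA2 interval had 1145 bp. The highest index among these, 0.937, was at chromosome 2, where adult FOXA2 was listed from 98506282 to 98507605 and adult POL2 from 98506200 to 98507599, starting 82 bp and ending 6 bp apart. It shared the make-up of the Rn45s stretch, with 1145 bp of PD12 FOXA2 inside it and no PD12 POL2. It is also where the widest PD12 FOXA2 interval outside the loci lay.

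The next was at chromosome 15, 89026301 to 89027787 for FOXA2, with an index of 0.929, no PD12 FOXA2 and 1600 bp of PD12 POL2. The third, at chromosome 1, 180335233 to 180337257, had an index of 0.920 and was listed by all 4 lists, with 893 bp of PD12 FOXA2 and 1800 bp of PD12 POL2. The fourth, at chromosome 13, 74776245 to 74778062 (0.851), had neither PD12 list. The fifth, at chromosome 2, 44781873 to 44783431 (0.834), had PD12 POL2 alone of the PD12 lists. Of these 5 regions, those at chromosome 2, 98506282, and chromosome 1 had PD12 FOXA2 as Rn45s did.

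Neither copy number nor mappability was measured, and no list of intervals from input DNA was analysed here. Whether the intervals at Rn45s and Cwc22 depend on the antibody was not tested.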

How the data were processed

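ChIP-seq interval lists of 4 libraries of whole mouse uterus were used, 1 for each antibody and stage. Per the file headers, each deposited list gives the chromosome, start and end of intervals called by the authors, with no score. BWA, without a version, is listed in the submitters' processing notes. For the caller, its threshold, any subtraction of input DNA and the genome build, nothing is given in the sources used here. Positions are taken as mm9, the build named in the rule for the loci. Against GRCm38, 260 intervals began beyond the last gene of their chromosome, 177 of them on chromosome 7. Chromosome lengths were not compared, so this alone does not show that the files are on another build. Caller and depth can set interval ends and list length. POL2 starts all lay on a 200 bp grid, against 0.559% of adult and 0.737% of PD12 FOXA2 starts.

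Positions were counted as inclusive, and intervals overlapping by at least 1 bp were paired. Differences are adult minus PD12 and FOXA2 minus POL2. The regions named beside the members are the 5 adult pairs of highest Jaccard index with at least 1000 bp on both sides. With 1 library per group no test was made. Shares have exact (Clopper-Pearson) 95% binomial intervals, for counting error only. The pairing and joining steps were tested on simulated lists. The members and comparisons were chosen with earlier results of these data known. The Cwc22 promoter and gene lengths are from RefSeq, GRCm38.p6. Python 3.11.15, numpy 2.4.6, pandas 2.3.3, scipy 1.17.1 and matplotlib 3.10.9 were used.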

Additional observations from a re-analysis of the deposited data

How the results depend on the processing

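The joining of PD12 FOXA2 before comparison with adult POL2 was added once the positions had been read. Across 32 results and 64 alternative values, 39 were equal to the reported value, within its 95% interval or, for counts and ranks, within 1.5 times of it. The other 25 moved. Nothing is concluded about direction, because counts, ranks, shares and Jaccard indices cannot be negative. Start and end distances between FOXA2 and POL2 have a sign. Moving FOXA2 ends outward to the 200 bp grid could not reverse it at the distances found. Windows widened by 50 kb, intervals wholly inside the window and half-open positions changed no value. The causes of the moves were not tested beyond the settings themselves.

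With gaps of up to 1 kb joined, Cwc22 had 2 PD12 POL2 domains (3 as listed), and the adult Rn45s POL2 domain ranked 5412 by width (5627 as listed). Rn45s then had 1 PD12 FOXA2 interval, with a Jaccard index of 0.946 against adult FOXA2 (0.842 as listed) and 0.999 against adult POL2 (0.889). The widest PD12 FOXA2 stretch was then at Rn45s (rank 1), and Cwc22 had rank 2. The Cwc22 POL2 domain then ranked 37 in the adult and 22 at PD12, its starts lay 14400 bp apart, and its index between stages was 0.818 (1 as listed). With FOXA2 ends moved outward to the 200 bp grid, FOXA2 minus POL2 was -400 bp at the start and 200 bp at the end of Rn45s (index 0.909) in the adult, and 37400 and -24600 bp at Cwc22 (index 0.0432) at PD12. On that grid, 6.91% of adult pairs had both ends within 500 bp and 2.49% had an index of 0.8 or more. With FOXA2 ends as listed, both ends lay within 200 bp in 1.44% of adult and 0.0% of PD12 pairs, and within 1000 bp in 11.4% of adult and 4.85% of PD12 pairs. With ends as listed, an index of 0.5 or more was reached by 8.55% of adult pairs. With FOXA2 intervals of 2000 bp or wider, 6.38% of 47 adult pairs had an index of 0.8 or more, and 0.0% of PD12 pairs, of which there was 1, had both ends within 500 bp. With 50% of the adult FOXA2 interval covered in each other list, 0.193% were listed by all 4 lists.

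No paired analysis was possible because there is a single library for each antibody and stage. Unknown depth limits what a missing interval shows, and the unknown caller and the POL2 grid limit how finely ends can be compared. No genome of the files' build was used, so neither sequence nor repeats at the loci were examined.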

Other observations

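The region at chromosome 2 with the highest Jaccard index among the 736 adult pairs outside the loci with at least 1000 bp on both sides held a second set of intervals within 10 kb. This was looked at after its values were seen. There, adult FOXA2 was listed from 98502293 to 98503253 (961 bp), PD12 FOXA2 from 98502358 to 98503171 (814 bp), and adult POL2 from 98502400 to 98505399 (3000 bp). No PD12 POL2 domain was listed within 10 kb of the first set. As at Rn45s, the adult FOXA2 interval reached past the PD12 listing on both sides in each set. In 95.7% of overlapping FOXA2 pairs the PD12 interval lay wholly inside the adult one, equal ends allowed.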
